A study of Mus musculus with 6 samples.

Results

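The genes described here are cytosolic chaperones, their co-chaperones and other targets of heat-shock factor, with the cold-inducible gene Cirbp as a contrast. They were taken from a list of 37 symbols, and each gene was represented by the probe set of highest mean intensity over the 6 arrays among those that name exactly 1 symbol. Of the 37, 34 genes had such a probe set, 33 chaperone-related genes and Cirbp, out of 18193 genes measured by 45037 probe sets. Hsf1, Hsp90ab1 and Ptges3 had no probe set naming them alone in the annotation used here and were not analysed here. The RNA was that of whole marrow from SCID/Bg mice, which are immunodeficient and make almost no mature T or B lymphocytes. In one group 3 mice received no treatment, and in the other 3 mice received NOX-A12, an aptamer built from mirror-image RNA that captures CXCL12, a chemokine of the marrow niche. Each mouse was hybridised to its own Affymetrix array. The sources used here give no dose, schedule, age or sex.

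Heat-shock proteins bind unfolded or newly made proteins and keep them from aggregating. HSP70 proteins take client proteins from J-domain partners, exchange factors such as HSP110 release them, and HSP90 with its co-chaperones completes the folding of many kinases and receptors. The ring-shaped TRiC complex folds actin and tubulin, and HSP60 with HSP10 folds proteins in mitochondria. When proteins unfold, heat-shock factor HSF1 is freed from chaperones, forms trimers and binds heat-shock elements, which are repeats of the letters GAA in alternating orientation. CIRBP is an RNA-binding protein whose transcript is known to increase in mild cold and to decrease at raised temperature.

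The promoter sequences of the inducible genes are shown first, because heat-shock elements are the sites through which these genes are known to be switched on together. RefSeq promoter windows on build GRCm38.p6, covering 250 bases before and 50 after an annotated start, were matched by symbol for 30 of the 36 chaperone-related genes and for Cirbp. They were searched on both strands for the paired elements GAANNTTC and TTCNNGAA, each of which reads the same on either strand, and, also on both strands, for longer elements that add 1 more unit of GAA or TTC at the same spacing and so contain the paired ones. Capitals mark the bases of matches. Hspa1b and Hspa1a, neighbouring genes of the inducible HSP70 protein, are shown from position -150 to -1 before the start, and the other genes as a stretch of 30 bases around the match.
Hspa1b, chr17:34959239-34959388, minus strand: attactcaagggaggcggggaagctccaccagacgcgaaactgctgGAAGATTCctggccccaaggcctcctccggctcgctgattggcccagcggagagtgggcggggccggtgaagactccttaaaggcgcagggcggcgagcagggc
Hspa1a, chr17:34972157-34972306, minus strand: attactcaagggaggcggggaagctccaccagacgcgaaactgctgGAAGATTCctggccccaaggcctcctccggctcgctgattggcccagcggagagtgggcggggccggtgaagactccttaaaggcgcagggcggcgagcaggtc
Dnaja1, chr4:40722333-40722362, plus strand: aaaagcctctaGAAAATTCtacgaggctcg
Chordc1, chr9:18292260-18292289, plus strand: ccgGAACGTTCGGGAAAATTCCTGAAgcag
Hsph1, chr5:149636279-149636308, minus strand: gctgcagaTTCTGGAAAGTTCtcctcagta
Hspe1, chr1:55088053-55088082, plus strand: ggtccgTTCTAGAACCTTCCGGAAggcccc

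The stretches before Hspa1b and Hspa1a were identical at 149 of 150 bases (99.3%). A paired element was found in a window of 15 of the 30 matched chaperone-related genes, where 17% of all 27025 genes with a window hold one. The longer element was found for 5 of the 30, namely Hsph1, Chordc1, Dnajb6, Hspd1 and Hspe1, against 0.662% of all genes. The list was chosen to include targets of heat-shock factor, so shares above those of all genes follow in part from that choice. The 15 also count Hspa1a and Hspa1b as separate genes. The windows of Hspe1 and of 1 Hspd1 start overlap and hold the same element. Among other chaperone-related genes, Hspa4l, Cacybp, Dnajb1 and Stip1 had no match in their windows, and neither did Cirbp. That says only that these letters are not in these windows. A match is a description of the letters and was not measured as a binding site here.

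The 6 arrays had median intensities between 44.8 and 45.6. On the array of untreated mouse 3, 851 probe sets differed over 2-fold from the median of the remaining mice, where the same count was 44 to 67 for any other mouse. The labelled tissue matched its markers: Mpo (7337 in untreated marrow), Alas2 (7595) and Klf1 (3807), marking granulocyte progenitors and red-cell precursors, were bright. Granulocyte and erythroid lists differed little, with median log2 changes of 0.03 and 0.02. Over all genes, 9607 of 18193 were lower in treated marrow. Stromal reticular markers were lower for 8 of 8 genes, with summed intensities of 5844 to 7593 untreated and 4293 to 5409 treated, and endothelial markers for 8 of 8, with 768 to 904 and 582 to 614. B lineage markers were lower for 7 of 7 genes, with 3464 to 4209 and 2424 to 3299. In monocyte and macrophage markers 3 of 8 were higher, among them Cd14 (a log2 change of 2.11 ± 0.23), with 9899 to 10592 and 10503 to 12673. T and natural killer markers had 3 of 7 higher with 1772 to 1904 and 1426 to 2005, and skeletal muscle markers 4 of 8 with 248 to 629 and 244 to 321. Such sums are weighted to single bright genes. Cd14 averaged 468 untreated and 2133 treated, Cxcl12 among the stromal markers averaged 3790 and 2887, and the muscle gene Myh1 read 355 in untreated mouse 3. At an unadjusted limma p under 0.05, 7 stromal, 5 endothelial and 3 B lineage markers were lower (3.52% of all genes) and 0 higher. Groups did not overlap, with treated mice lower, for 5 stromal, 5 endothelial and 3 B lineage markers (6.65% of all genes). The lowest deposited intensity was 0.66 and not 0, so a listed value does not show that a marker was detected. Cd4, Tnnt3, Cd3e and Hba-a1 were among the dimmest of these markers, and Cd4 read 1 in NOX-A12 mouse 3. In bulk marrow, a change in the share of a cell type and a change of RNA per cell cannot be told apart, and the part of these markers in the chaperone differences was not tested.

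Of the members, Hspa1b had the largest log2 change in this fit. Hspa1b, which encodes stress-inducible HSP70, had intensities of 47.3, 46.4 and 63.0 in untreated mice 1 to 3 and of 514, 167 and 135 in NOX-A12 mice 1 to 3. All treated mice lay above all untreated mice, and NOX-A12 mouse 1 lay far above the other treated mice, at 9.84 times the untreated mean against 3.20 and 2.58 times. Group means were 52.2 ± 9.33 (SD, n = 3) untreated and 272 ± 210.3 (SD, n = 3) treated, a log2 change of 1.85 ± 0.43 (SE), with a 95% interval from 0.83 to 2.87. Log2 changes throughout are NOX-A12 minus untreated on the scale of log2(intensity + 16), which understates changes of dim probe sets. Without NOX-A12 mouse 1 the change of Hspa1b was 1.29.

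Hspa1a, which encodes an almost identical protein, read 20.8, 23.2 and 18.1 in untreated mice and 84.4, 34.7 and 25.4 in NOX-A12 mice 1 to 3. Here too the groups did not overlap and NOX-A12 mouse 1 was the highest, while NOX-A12 mouse 3 exceeded the highest untreated mouse only narrowly. The log2 change was 0.70 ± 0.30, and it was 0.32 without NOX-A12 mouse 1. Only 44.8% of all probe sets were dimmer than this one, so the offset mattered: the change was 1.00 with an offset of 1 and 0.37 with an offset of 64. The other probe sets of Hspa1b gave 1.76 ± 0.42 and 1.57 ± 0.42, also without overlap between groups. Because the paralogs are so alike, their probe sets may share signal, and which of the 2 genes supplied the signal cannot be told apart.

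The constitutive HSP70 gene Hspa8 showed a smaller difference. Its values were 8248, 7242 and 7763 in untreated mice and 9683, 9629 and 8742 in treated mice. The groups did not overlap, and the log2 change was 0.27 ± 0.10. All 4 of its probe sets were higher in treated marrow, the others by 0.50 ± 0.12, 0.44 ± 0.14 and 0.43 ± 0.24. Hspa14, a ribosome-associated HSP70 protein, overlapped between groups at 0.17 ± 0.17.

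**Figure D1:**
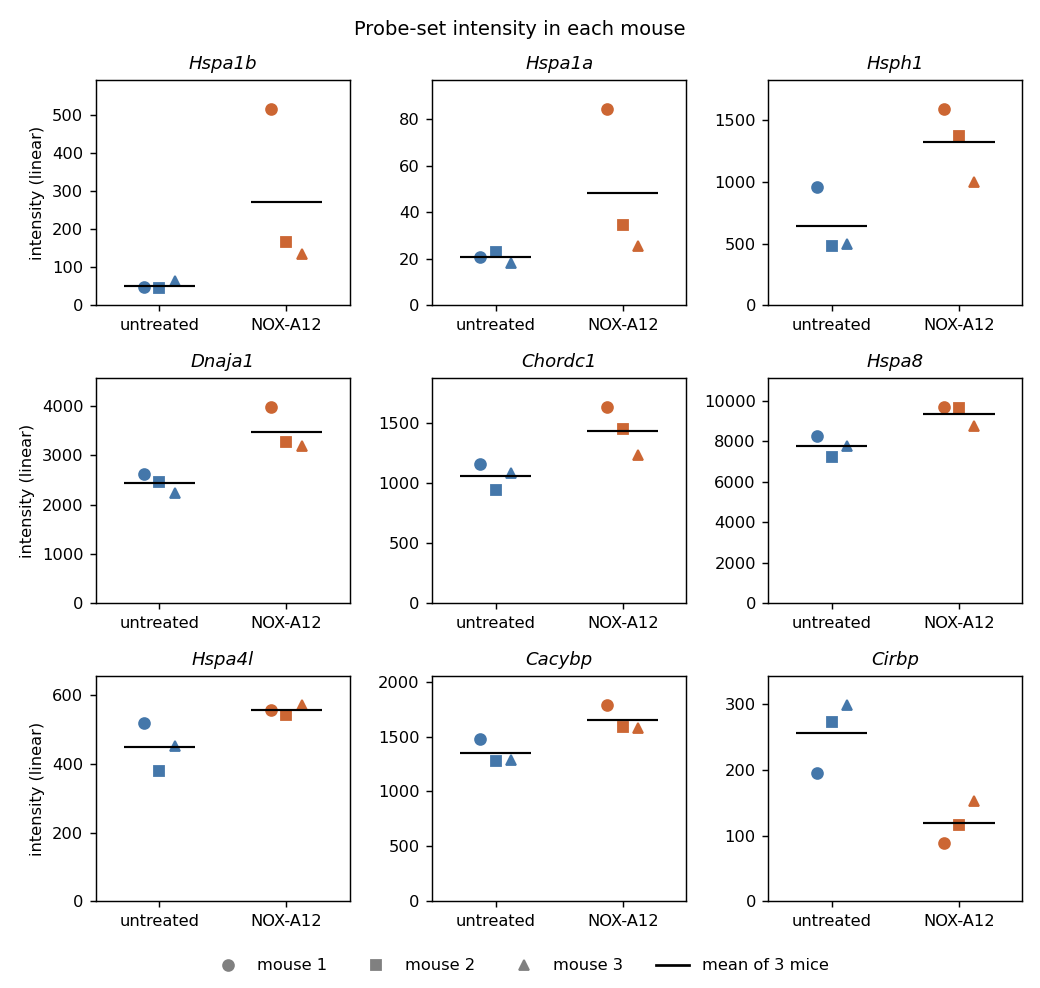
Linear probe-set intensity of 9 genes in each of the 6 mice, with untreated mice in blue, NOX-A12 mice in orange, symbols for mouse number (which names different animals in the groups) and a bar at each group mean. In the first 8 panels all treated mice lie above all untreated mice, with NOX-A12 mouse 1 at 514 for Hspa1b, and in the last, Cirbp, all treated mice lie below.

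Among the HSP110 genes, which speed nucleotide exchange on HSP70, Hsph1 differed most. It read 958, 479.8 and 498 in untreated mice and 1590.0, 1375 and 1001 in NOX-A12 mice. The groups did not overlap, but untreated mouse 1 lay just under the lowest treated mouse and far above the other untreated mice. The log2 change was 1.06 ± 0.29 (95% interval 0.39 to 1.74), with means of 645 ± 271 (SD, n = 3) and 1322 ± 298 (SD, n = 3). Its other probe set gave 1.32 ± 0.46 and overlapped between groups, with untreated mouse 3 at 146.3 against 614 and 266 in the other untreated mice. Hspa4l, a related protein abundant in germ cells, read 519, 379 and 453 in untreated and 559, 543 and 572 in treated mice. Its treated mice were tightly grouped above the untreated ones, with a log2 change of 0.31 ± 0.13 (0.20 without untreated mouse 2), and all 5 of its probe sets had this sign. The third gene, Hspa4, gave -0.08 ± 0.11 with overlapping groups, and 2 of its 4 probe sets had the opposite sign.

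J-domain proteins deliver clients to HSP70, and Dnaja1 was the gene of this class that differed. It read 2625, 2455 and 2239 in untreated mice and 3976, 3265 and 3181 in treated mice. Every treated mouse exceeded every untreated mouse, and NOX-A12 mouse 1 was again the highest. The log2 change was 0.50 ± 0.12, with 0.47 ± 0.14 and 0.41 ± 0.11 at its other probe sets, none of which overlapped between groups. Dnajb1, the principal J-domain partner of inducible HSP70 and itself a known HSF1 target, read 1477, 1434 and 1669 in untreated and 1766, 1631 and 1556 in treated mice. Its groups overlapped at 0.11 ± 0.10. The interval from -0.13 to 0.35 leaves out changes of the size measured for Hspa1b, Hspa1a, Hsph1, Dnaja1 and Chordc1. Changes of the size measured for Hspa8 (0.27), Cacybp (0.29), Hspa4l (0.31) and St13 (0.07) lie within it. The Dnajb1 change was 0.06 without NOX-A12 mouse 1, 0.07 without untreated mouse 2 and 0.18 without untreated mouse 3. Bag3, an HSP70 co-chaperone of selective autophagy and also a known HSF1 target, read 141, 148 and 188 in untreated and 195, 155 and 160.2 in treated mice, which overlap. Its change of 0.09 ± 0.14 was -0.0021 without NOX-A12 mouse 1. Dnaja2, Dnajb4 and Dnajb6 overlapped between groups, with changes of 0.18 ± 0.14, -0.04 ± 0.12 and 0.01 ± 0.09.

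Transcripts of HSP90 and its partners were next. Hsp90aa1, the inducible HSP90 isoform, read 7909, 6762 and 6560.2 in untreated mice and 8017, 7957 and 7564 in treated mice. Untreated mouse 1 lay within the treated range, and the log2 change was 0.15 ± 0.10, or 0.24 without that mouse and 0.10 without untreated mouse 3. Chordc1, an HSP90 co-chaperone, read 1159, 937 and 1078 in untreated and 1628, 1442 and 1227 in treated mice, without overlap, at 0.43 ± 0.14. Cacybp, which links HSP90 co-chaperones to a ubiquitin ligase, read 1476, 1276 and 1286 in untreated and 1786, 1584 and 1576 in treated mice, also without overlap, at 0.29 ± 0.11.

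For the remaining HSP90 co-chaperones the change was positive with a 95% interval that includes 0. Stip1, which bridges HSP70 and HSP90, gave 0.29 ± 0.18, and Fkbp4, a steroid-receptor immunophilin, 0.26 ± 0.14. In both, untreated mouse 1 alone lay inside the treated range. St13, an HSP70-interacting protein, did not overlap between groups but gave only 0.07 ± 0.09. Ahsa1, the activator of the HSP90 ATPase, varied widely within both groups: it ranged from 604 to 1207 in untreated and from 649 to 1352 in treated mice, at 0.21 ± 0.33.

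**Figure D2:**
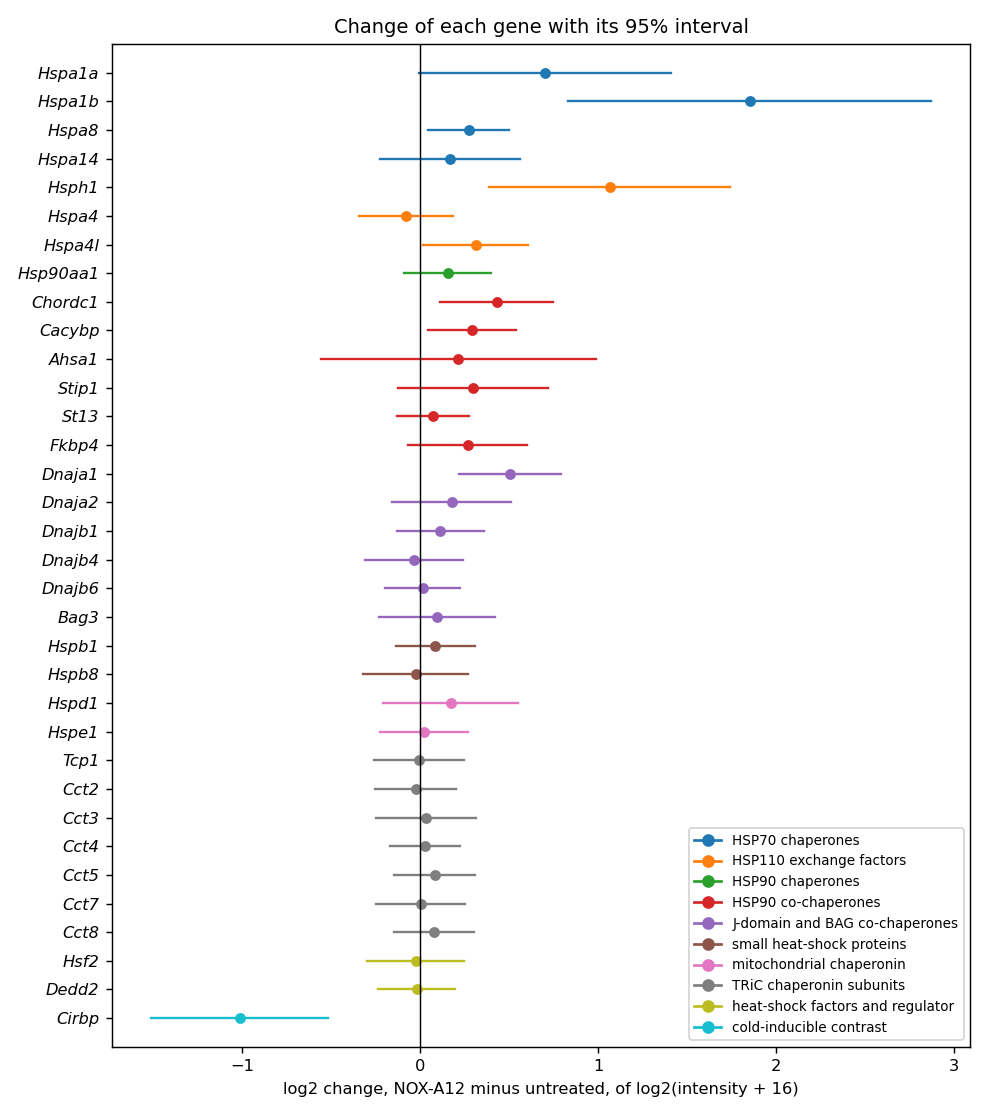
Log2 change, NOX-A12 minus untreated, for the 34 measured genes, coloured by role, with points for the estimate and lines for the 95% interval of the limma fit. Hspa1b (1.85), Hsph1 (1.06) and Hspa1a (0.70) lie furthest to the right, the TRiC subunits lie between -0.03 and 0.08, and Cirbp is alone on the far left at -1.02.

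Chaperonins and small heat-shock proteins lay close to 0. The 7 measured TRiC subunits ranged from -0.03 (Cct2) to 0.08 (Cct5), with overlapping groups in every one and a median of 0.03. Cct5 read 2774, 2504 and 2463 in untreated and 2904, 2638 and 2640.5 in treated mice, and its change was between 0.03 and 0.13 when each mouse was left out. The mitochondrial chaperonin gene Hspd1, which encodes HSP60, read 3565, 2679 and 2409.6 in untreated and 3196, 3536 and 2907 in treated mice. Those groups overlap, since untreated mouse 1 was the highest of all, and the change of 0.17 ± 0.16 was 0.33 without it and 0.05 without untreated mouse 3. Hspe1, which encodes its HSP10 partner, read 2090.4, 1904 and 2250.4 in untreated and 2246, 2125 and 1952 in treated mice, at 0.02 ± 0.11. The element printed for Hspe1 lies before its start and before 1 of the 2 annotated starts of Hspd1, and the window of the other Hspd1 start holds no match. Hspb1, encoding the small heat-shock protein HSP27, read 130.3, 128 and 148 in untreated and 148, 140.2 and 144 in treated mice, at 0.08 ± 0.09 (0.05 without untreated mouse 2 and 0.14 without untreated mouse 3), and Hspb8 gave -0.03 ± 0.13.

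Of the heat-shock factors only Hsf2 was measured here. Hsf2, which can join HSF1 in mixed trimers, was dim, at 43.7, 40.7 and 32.6 in untreated and 42.9, 34.2 and 36.7 in treated mice. Its change was -0.03 ± 0.12, with 0.17 ± 0.12 at a dimmer probe set. Dedd2, a death-effector-domain gene, gave -0.02 ± 0.09. HSF1 is known to be controlled mainly by its protein's state, which arrays do not measure.

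Cirbp differed in the direction opposite to Hspa1b, Hspa1a, Hsph1 and Dnaja1, while Dnajb1, Bag3, Hspb1 and Hsp90aa1 overlapped between groups. It read 196, 273 and 298 in untreated mice and 89.0, 115 and 153 in NOX-A12 mice 1 to 3. All treated mice lay below all untreated mice, as they did for 6.65% of all genes, and NOX-A12 mouse 1, the highest mouse for Hspa1b, Hspa1a, Hsph1 and Dnaja1, was the lowest for Cirbp. Group means were 256 ± 53.4 (SD, n = 3) and 119 ± 32.0 (SD, n = 3), a log2 change of -1.02 ± 0.21 with a 95% interval from -1.51 to -0.52. It ranged from -1.19 to -0.85 when each mouse was left out in turn. A single probe set names this gene alone in the annotation used here, so no other such probe set bears on it. Rbm3, another cold-inducible RNA-binding gene, was not among the genes with a probe set of its own in the annotation used here.

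None of these genes passed the test across the array. With limma and Benjamini-Hochberg adjustment over 45037 probe sets, 0 members were called at an adjusted p under 0.05, and 0% of all probe sets were. The adjusted p was 0.926 for Hspa1b, Hsph1, Dnaja1 and Cirbp and 0.967 for Hspa8, Chordc1, Cacybp and Hspa4l. At an unadjusted limma p under 0.05, 7 of the 33 chaperone-related genes were higher and 0 were lower, where 1.78% of all genes were higher and 3.52% lower. Those 7 are Hspa1b, Hspa8, Hsph1, Hspa4l, Chordc1, Cacybp and Dnaja1. A positive change was measured for 26 of 33 genes, where 47.2% of all genes had one. Most of these genes are bright, and among the 4222 genes brighter than the lower quartile of the 33, a comparison chosen after the data were seen, the share was 53.1%. The median change was 0.09, against -0.01 over all genes. It was 0.06 without untreated mouse 2.

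Groups did not overlap, with treated mice higher, for 9 of the 33 genes, where 3.92% of all genes and 3.86% of those 4222 brighter genes did so. Without untreated mouse 1 that number was 18, against 11% of all genes in the same comparison. With the mean of all probe sets of a gene it was 5, against 3.89%. Of the 9, the 7 with a promoter window included 5 with a paired element, against 10 of the 22 other measured genes with a window. The 5 include Hspa1a and Hspa1b, which are nearly identical before their starts. The 10 include Hspd1 and Hspe1, which hold the same element, so neither pair counts as separate cases. The 9 were chosen here by their values, so this is a description with no test.

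**Figure D3:**
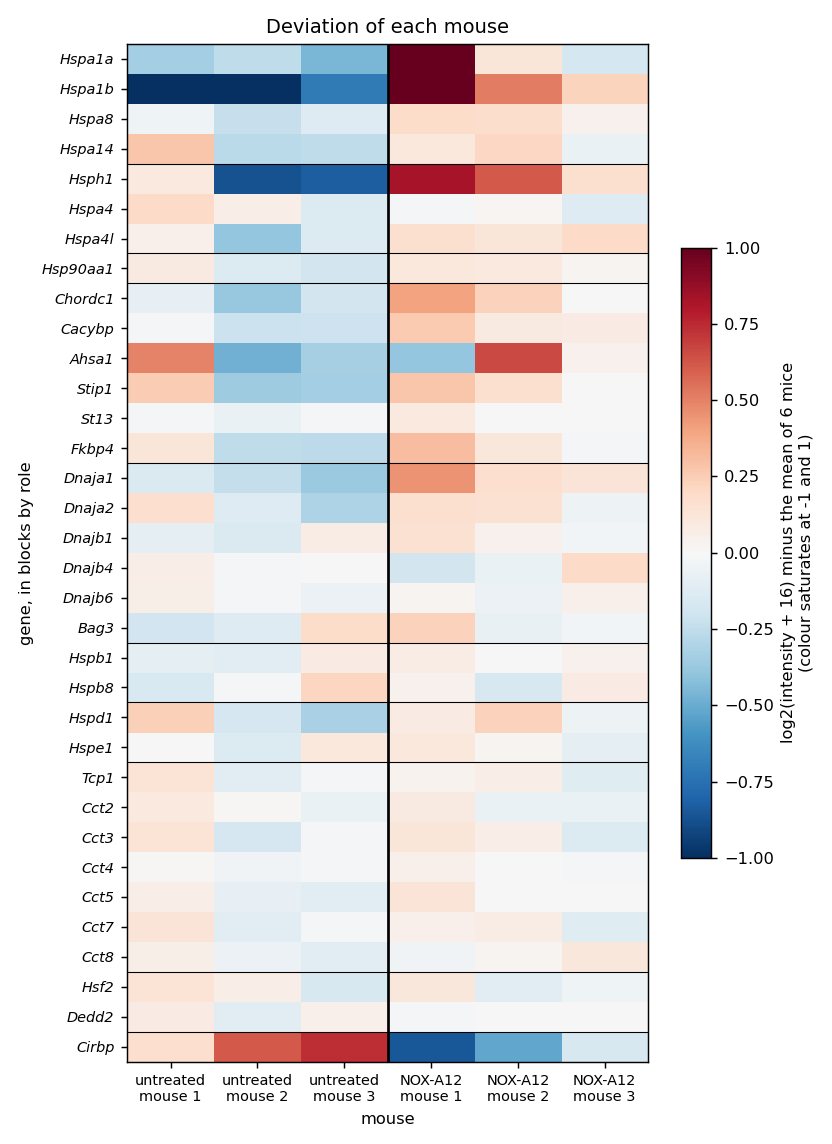
Deviation of log2(intensity + 16) in each mouse (columns) from the mean of the 6 mice, for each of the 34 genes (rows, in blocks by role), red above and blue below the mean. Strong colour is found in the rows of Hspa1a, Hspa1b, Hsph1, Ahsa1 and Cirbp, the Cirbp row is reversed, and the blocks of TRiC and heat-shock factor genes are pale.

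Single mice within each group differed across many of these genes at once. In the untreated group, mouse 1 was the highest for 25 of the 33 genes, where it was so for 33.4% of all genes. In the treated group, mouse 1 was the highest for 21 of the 33 (36.4% of all genes) and mouse 3 the lowest for 21 (34.3% of all genes). The mean deviation over the 33 genes was 0.02, -0.20 and -0.15 in untreated mice and 0.22, 0.10 and 0.01 in NOX-A12 mice 1 to 3, so untreated mouse 1 was above NOX-A12 mouse 3. For HSP70 genes alone it was -0.28, -0.45 and -0.39 in untreated against 0.86, 0.25 and 0.01 in treated mice, and those groups do not overlap. That mean is over only 4 genes and is weighted to Hspa1b and Hspa1a, which changed by 1.85 and 0.70 and may share signal. The remaining genes, Hspa8 and Hspa14, changed by 0.27 and 0.17, and Hspa14 overlapped between groups. The separation of this mean is therefore no finding beyond those of the single genes. For TRiC subunits the mean deviation was 0.09, -0.08 and -0.05 against 0.06, 0.02 and -0.05, which overlap.

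A list of 18 immediate early genes, which are switched on quickly by many stimuli, varied among the same mice. Its mean deviation was 0.15, -0.14 and -0.31 in untreated and 0.40, 0.19 and -0.28 in treated mice, so NOX-A12 mice 1 and 2 were above the mean of the 6 mice in both sets of genes and untreated mice 2 and 3 below it. Untreated mouse 1, at 0.15 here, was at 0.02 over the chaperone-related genes and at -0.28 over the HSP70 genes. Its median change was 0.26, with 14 of 18 genes positive (47.2% of all genes). At an unadjusted limma p under 0.05, 4 were higher (1.78% of all genes) and 1 lower (3.52%). The groups overlapped in summed intensity, at 11961 to 15796 untreated and 11327 to 20034 treated. The part of these genes in the chaperone differences was not tested.

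Several chaperone genes have probe sets that disagreed on the array of untreated mouse 3. Among the probe sets of these genes, 6 lay over 2-fold below the median of the other mice there and 0 over 2-fold above. These 6 include the second probe set of Hsph1 (1.32 ± 0.46) and 2 of Hsp90aa1. For Hsp90aa1, 1 of them read 698 in untreated mouse 3 against 3312 and 2438 in the other untreated mice and gave a change of 0.77 ± 0.51, the other read 1688 against 4556 and 3915 and gave 0.56 ± 0.34, while the brightest probe set read 6560.2 and gave 0.15 ± 0.10. Cct3, Dnajb6 and St13 had such a probe set as well, at 0.62 ± 0.53, 0.53 ± 0.42 and 0.49 ± 0.28, beside 0.03, 0.01 and 0.07 at their brightest ones. The part of this array in those differences was not tested. At the probe sets of highest mean, which are not among the 6, leaving out untreated mouse 3 gave 1.96 for Hspa1b and 0.92 for Hsph1. It gave 0.44 for Dnaja1 and -0.90 for Cirbp. These values do not bear on the 6 probe sets. Over all, 71 of the 89 probe sets of the 33 genes had a positive change, where 49.9% of all probe sets did, and 17 of the 24 genes with several probe sets had the same sign at all of them.

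**Figure D4:**
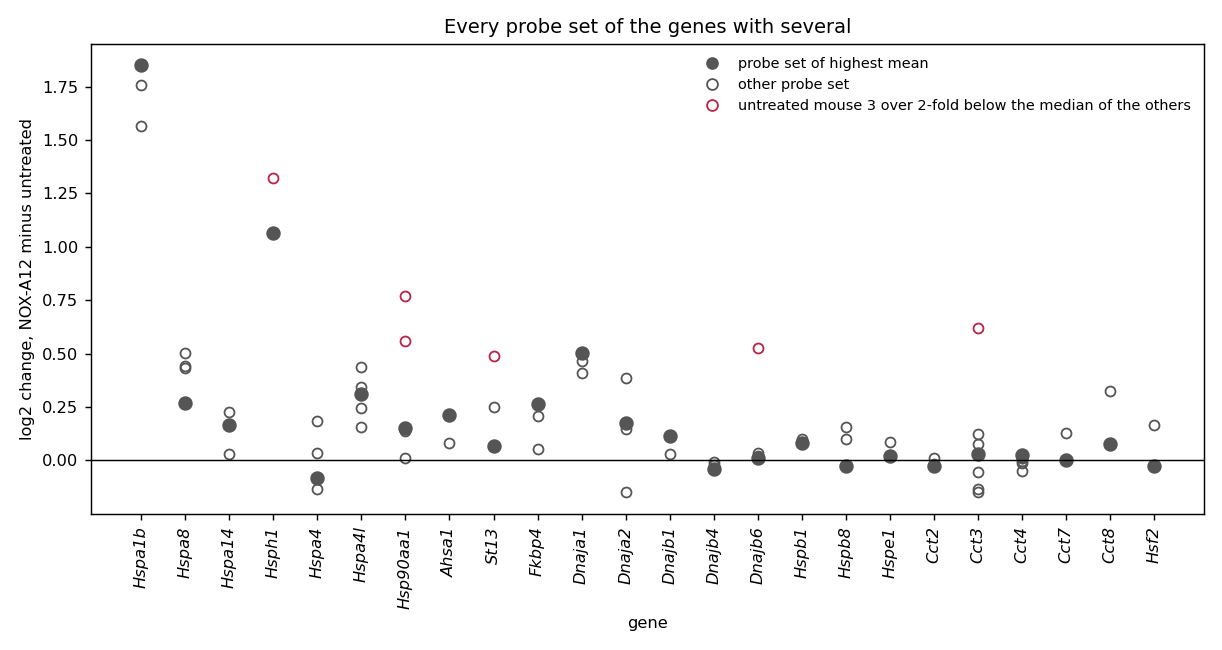
Log2 change, NOX-A12 minus untreated, of every probe set of the 24 genes with more than 1, filled for the probe set of highest mean, open for the others, and red where untreated mouse 3 was over 2-fold below the median of the other mice. The probe sets of Hspa1b, Hspa8, Hspa4l and Dnaja1 lie together above 0, and the 6 red ones, among them those of Hsp90aa1, Cct3 and Dnajb6, lie above the other probe sets of their genes.

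Other genes of protein folding were compared from lists written for this purpose. Of 13 further cytosolic co-chaperones, 7 were higher and 6 lower with a median of 0.0022, and 0 had an unadjusted limma p under 0.05. The smallest p values belonged to Fkbp5, a glucocorticoid-induced HSP90 immunophilin (0.39 ± 0.22), and Sugt1 (0.20 ± 0.13). Prefoldin and the remaining TRiC subunit genes had 3 of 8 higher and a median of -0.01, led by Pfdn2 (-0.09 ± 0.14) and Pfdn6 (0.05 ± 0.10). Mitochondrial chaperones and proteases had 4 of 8 higher and a median of -0.03, with Clpp at -0.19 ± 0.15 and Dnaja3 at 0.11 ± 0.12. In neither list did a gene have an unadjusted limma p under 0.05.

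Endoplasmic reticulum chaperones, most of which are induced by the unfolded protein response, were mostly higher in treated marrow. Of 15, 14 had a positive change (47.2% of all genes) with a median of 0.19. At an unadjusted limma p under 0.05, 3 were higher (1.78% of all genes), and 4 did not overlap between groups with treated mice higher (3.92% of all genes). Creld2 read 511, 399 and 409 in untreated and 566, 529 and 559.7 in treated mice, at 0.32 ± 0.12, and Sdf2l1 gave 0.27 ± 0.10. The exception was Serpinh1, the collagen chaperone and a known HSF1 target, at -0.11 ± 0.12. Within this list NOX-A12 mouse 3, and not mouse 1, had the highest mean deviation, at 0.14 against 0.07.

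Further genes known to respond to heat or damaged protein showed no common direction. Of 14, 9 were higher with a median of 0.01, and 0 had an unadjusted limma p under 0.05. Hmox1, the heme oxygenase induced by oxidative stress, gave -0.31 ± 0.14, and Rgs2, a regulator of G-protein signalling, gave 0.35 ± 0.18.

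**Figure D5:**
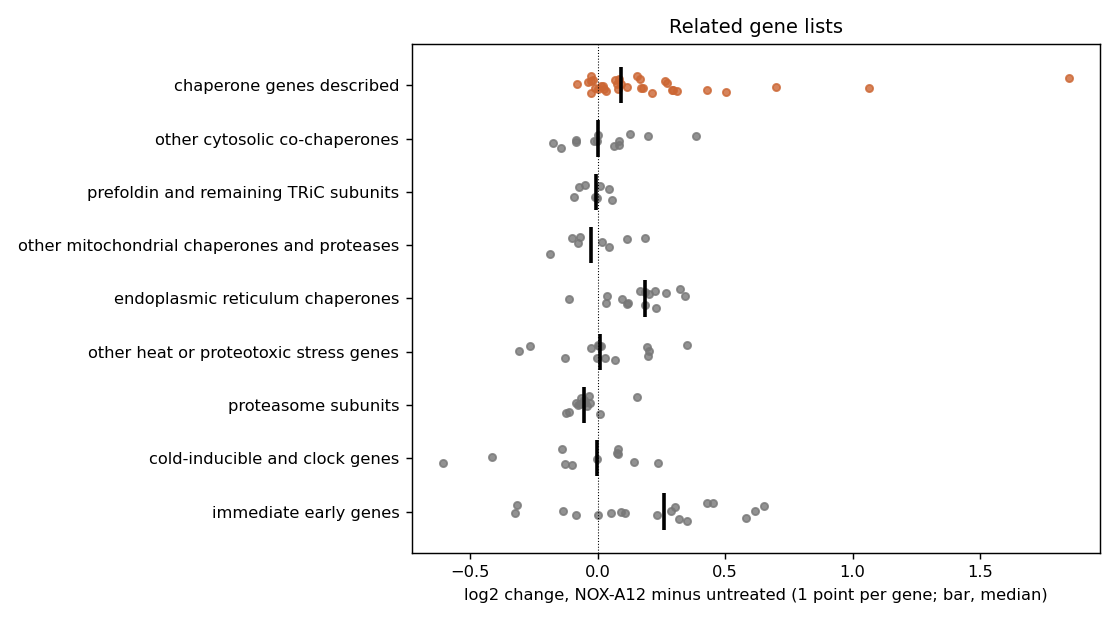
Log2 change, NOX-A12 minus untreated, of each gene (points) in the 33 chaperone-related genes (orange) and in the related lists (grey), with bars at the medians. The median is 0.19 for endoplasmic reticulum chaperones and 0.26 for immediate early genes, and between -0.06 and 0.09 for the others, while 3 orange points, Hspa1a, Hsph1 and Hspa1b, lie at 0.70 or above.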

How the data were processed

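The authors deposited linear probe-set intensity values of 6 arrays as 1 table. The sources used here name no normalization or summary software. On the log2 scale the medians of the deposited arrays spanned only 0.0262, so the values were used as deposited. Per the labels' sample titles, 3 mice were untreated and 3 treated. The titles number separate mice, so p-values measure the spread between animals, and precision is limited by having 6 arrays. Probe sets were named from the platform's annotation: 34945 have 1 symbol, 932 several and 9160 none listed. All 45037 were fitted with limma 3.58.1 in R 4.3.3 on log2(intensity + 16), two-sided, without covariates, with Benjamini-Hochberg adjustment and a threshold of 0.05 (7.24 degrees of freedom). Errors of changes are standard errors. The fit was tested on simulated data. The members and lists were chosen with earlier results of these data known, so they were described by counts and medians with no list test. Values per mouse are given for a fixed set of key genes, for members with an unadjusted p under 0.05 and for the largest change in each role. Alternatives were other scalings, offsets, filters, variance models, probe sets and leaving out each mouse.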

Additional observations from a re-analysis of the deposited data

How the results depend on the processing

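No probe set passed the limma threshold under any of 14 other fits (0 in each, lowest adjusted p 0.0631, without untreated mouse 1). The number of chaperone-related genes higher in treated marrow was between 23 and 30 over 16 alternatives, and their median change between 0.06 and 0.14. The number whose groups do not overlap was 5 with the mean of all probe sets of a gene, against 3.89% of all genes. It ranged from 9 to 18 when each mouse was left out. The 18 was without untreated mouse 1, where the share of all genes rose from 3.92% to 11%. Leaving out a mouse makes such separation easier for any gene, and the other shares over all genes were not computed. The 17 genes with values per mouse gave 268 values under the alternatives, of which 261 kept their sign. The other 7 were changes close to 0, and the cause was not tested. When each mouse was left out, Bag3 ranged from -0.0021 to 0.207, Hspe1 from -0.043 to 0.077 and Hsf2 from -0.113 to 0.035. Hspe1 was also -0.00052 after quantile normalization, and Hsf2 was 0.071 with the mean of its probe sets. The mouse number names different animals in the groups, and deviations of same-numbered mice correlated at -0.09, 0.05 and 0.03 over probe sets. With the number as a replicate block, 0 probe sets passed and the median change stayed at 0.09. With 3 mice a group, differences smaller than the 95% intervals could not be told from 0.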

Other observations

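Clock-controlled genes were compared beside Cirbp, whose transcript is known to follow daily temperature cycles. Of 11 clock and clock-controlled genes measured, 5 were higher and 6 lower with a median of -0.0028, and 2 were lower at an unadjusted limma p under 0.05 (3.52% of all genes). Dbp, a transcription factor driven directly by the clock, read 70.1, 89.8 and 128.5 in untreated and 48.8, 60.4 and 59.3 in treated mice, without overlap, at -0.61 ± 0.19. Nr1d2, a clock repressor, gave -0.41 ± 0.14 with overlapping groups. Some of these genes varied widely within a group. Per1 read 73.7, 319 and 650 in untreated and 124, 483 and 203 in treated mice, and Arntl 597, 248 and 251 in untreated mice. The sources used here do not state the hour of treatment or collection.

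Proteasome subunits degrade what chaperones cannot refold. Their genes were lower by small amounts for 12 of 14, where 9607 of all 18193 genes were lower. The median was -0.06, and 0 had an unadjusted limma p under 0.05. Psma5 (-0.11 ± 0.09) was the 1 gene of the 14 without overlap between groups, with treated mice lower, as they were for 6.65% of all genes. Psmd1 gave -0.12 ± 0.09.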
